A study of Mus musculus with 9 samples.

Results

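The S100 proteins are small calcium-binding proteins, and 10 of their genes (S100a1, S100a4, S100a6, S100a8, S100a9, S100a10, S100a11, S100a13, S100a16 and S100b) were followed here in mouse hepatic stellate cells. They were chosen by name: every non-control probe whose gene name was one of the 10 was taken, which gave 12 of 56605 probes and 10 of the 23965 genes that could be tested. All 10 genes passed the filter on dim probes. Signals came from 9 one-colour Agilent arrays in 3 groups of 3. The si-cav arrays held stellate cells activated by 7 days on a hard culture plate and then transfected overnight with 5 nM siRNA against Cav1 (caveolin-1), the nc arrays held cells cultured and transfected the same way with a negative control siRNA, and the qhsc arrays held stellate cells labelled quiescent, with no treatment and no harvest time given. All cells came from C57BL/6 mice aged 10 weeks, isolated by collagenase perfusion and, per the protocol, plated in medium with serum. Nothing in the labels ties an array to its own mouse or culture dish, so a p-value measures only the spread between these arrays, which may be technical.

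Each S100 protein carries a pair of EF-hands, the helix-loop-helix motifs that hold calcium. In most members, calcium binding opens a surface on the protein that then grips a partner, such as an annexin, non-muscle myosin or a kinase. Some members also act outside the cell: S100A8 and S100A9 pair up as calprotectin, a major cytosolic protein of neutrophils, and signal through TLR4 and RAGE. S100A4 is widely used as a marker of fibroblast-like cells, and S100A6 and S100A11 are known from growing and spreading cells. Hepatic stellate cells store vitamin A in the healthy liver and turn into contractile, collagen-making myofibroblasts in injury or on plastic.

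The family resemblance can be read in the probes themselves. The 3 sequences below are shown because they lie over the same place in 3 members whose signals moved differently: the coding letters at the end of the second calcium-binding loop. Capitals mark ACTTCNAGGAGT, where N is any base, the longest stretch these 3 probes share with at most 1 differing base, chosen after the probe sequences were seen and searched on the printed strand. It was found in 3 of the 12 member probes, in 1 other S100 probe (that of S100a5) and in 5 of all 56605 probes, or 0.00883%. The coordinates are those of the array design on mouse build mm9, and each probe is 60 bases long.
S100a1, chr3:90315191-90315250, minus strand: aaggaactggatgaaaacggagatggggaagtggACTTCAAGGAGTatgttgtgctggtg
S100a6, chr3:90418160-90418219, plus strand: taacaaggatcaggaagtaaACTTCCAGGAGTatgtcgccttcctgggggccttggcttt
S100a8, chr3:90473778-90473837, plus strand: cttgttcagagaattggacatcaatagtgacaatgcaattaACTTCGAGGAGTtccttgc
S100a6 rose in culture while S100a1 and S100a8 fell, as described below.

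Between 51.5% and 69% of probes were well above background on an array, and no spot was saturated. Cav1, the target of the siRNA, gave log2 signals of -2.87, -2.89 and -3.07 in si-cav, against -1.34, -1.12 and -1.09 in nc, a log2 difference of -1.76 that limma did not call after adjustment (unadjusted p = 4.83e-05, adjusted p = 0.145). Throughout, a signal is the log2 of the scanner's processed signal relative to the 75th percentile of its own array, so 0 is that percentile. Among stellate cell markers, Lrat, which stores retinol as esters, was above background on no cultured array and on all qhsc arrays, and Des was too dim to be tested. Of the 14 stellate markers tested, 2 rose in nc, Pdgfrb the most (log2 change 4.51, adjusted p = 4.46e-05), and 8 fell, and the summed signal in multiples of the 75th percentile was 116 to 118 in si-cav and 118 to 129 in nc, against 64.3 to 174 in qhsc. The qhsc arrays also carried all 12 hepatocyte, all 12 liver endothelial and all 12 lymphocyte markers above background. Their summed signals in qhsc were 1155 to 1358, 412 to 688 and 43.4 to 117.5, beside 64.3 to 174 for the stellate markers. The lists differ in their genes, so these sums do not give shares of cells. The qhsc arrays shared a slide with nc replicate 1, and the other 5 arrays were on a second slide.

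The comparison of nc with qhsc asks how the family differed between activated cells and cells labelled quiescent, whose arrays also carried markers of other liver cells. In nc, 6 of the 10 members rose (S100a4, S100a6, S100a10, S100a11, S100a16 and S100b), 3 fell (S100a1, S100a8 and S100a9) and 1 (S100a13) did not pass an adjusted p of 0.05. This comparison called 68.1% of all genes tested, 42.1% higher and 26% lower, so a share of 9 in 10 members is to be read against a background in which most genes were called. The groups did not overlap for 9 members, against 69.8% of all genes. The median log2 change over the 10 members was 1.03, or 0.69 with the 2 members that were below background in one group set at their bounds, beside 0.32 over all genes.

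**Figure D1:**
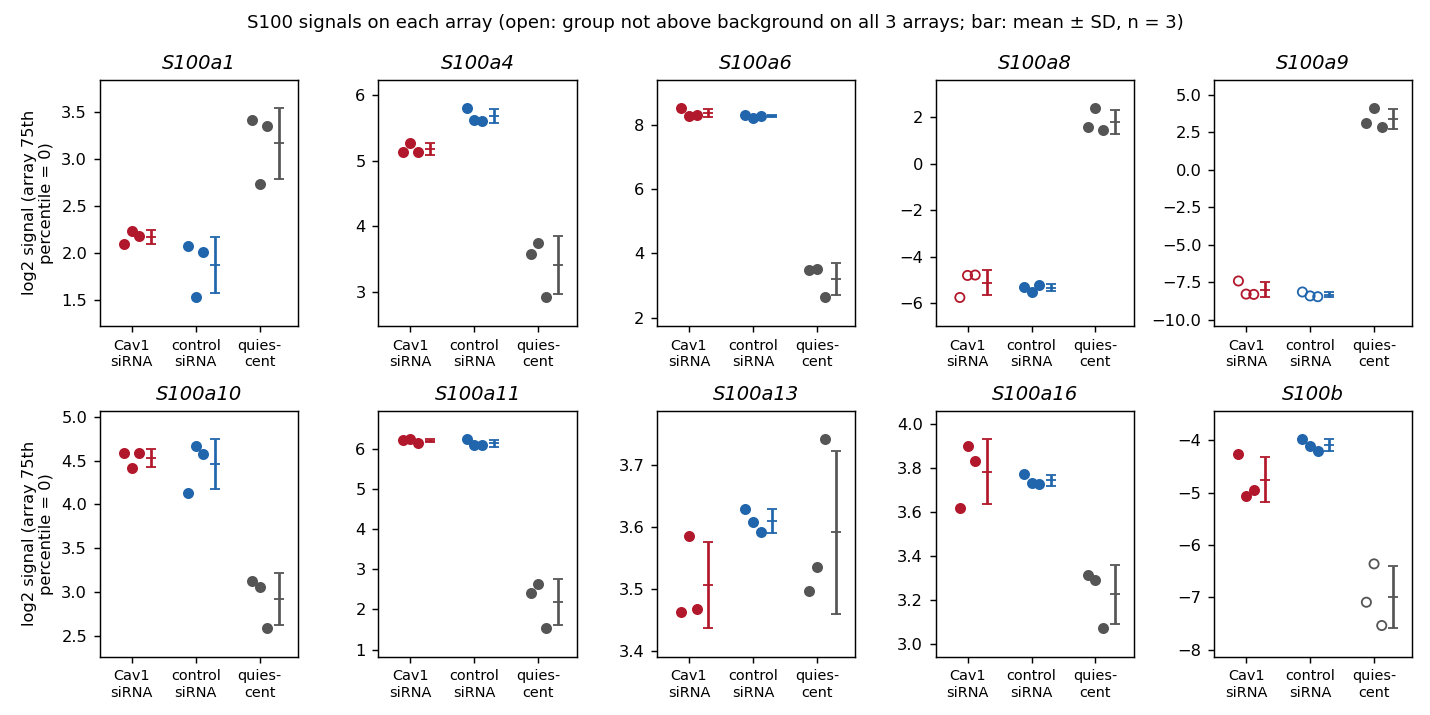
Log2 signal of each S100 gene on each array (y axis, 0 is the array's 75th percentile) in the si-cav, nc and qhsc groups, with mean ± SD over 3 arrays beside the points and open points where the group was not above background on all 3 arrays. S100a6 sits between 8.23 and 8.52 on the 6 cultured arrays and at or below 3.52 in qhsc, while S100a9 is the reverse, at or below -7.41 in culture and at or above 2.87 in qhsc.

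S100a6 (calcyclin) showed the largest rise of the 10. Its log2 signal was 8.32, 8.23 and 8.30 in nc, against 3.48, 3.52 and 2.63 in qhsc. The nc arrays lay close together and far above every qhsc array, and qhsc replicate 3 was the lowest. The log2 change was 5.07 ± 0.23 (SE, n = 3 each; limma adjusted p = 1.21e-07), 33.6-fold with a 95% confidence interval of 23.3 to 48.45. In si-cav the signal was as high, at 8.52, 8.28 and 8.31.

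S100a11 (calgizzarin), which binds annexin A1 and helps to repair the plasma membrane, came next. It measured 6.23, 6.08 and 6.08 in nc, against 2.41, 2.62 and 1.53 in qhsc, a log2 change of 3.95 ± 0.26 (SE; adjusted p = 1.07e-06) or 15.4-fold. Again the groups were far apart and qhsc replicate 3 was the lowest of its group. The 250 bases before its RefSeq start are printed because this gene and S100a4 rose together from unlike starts. Capitals mark TGANTCA, the letters read by the AP-1 family of factors, searched on both strands; they occur in the 250 bases before the start of 6.75% of 32851 mouse promoters in the RefSeq table.
S100a11, GRCm38.p6 chr3:93520246-93520495, plus strand: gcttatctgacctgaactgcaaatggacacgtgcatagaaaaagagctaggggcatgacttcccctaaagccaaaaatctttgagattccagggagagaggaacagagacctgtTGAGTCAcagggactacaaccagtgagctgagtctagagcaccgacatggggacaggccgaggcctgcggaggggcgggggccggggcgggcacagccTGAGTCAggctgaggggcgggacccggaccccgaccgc
The matches began 136 and 38 bases before the start. Of the 9 members with a promoter in that table (10 windows), only S100a11 and S100a16 held the letters in this window, S100a16 once, 192 bases before a start. A match in the letters is a description and shows no binding.

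S100a4 (FSP1, metastasin), which binds non-muscle myosin, measured 5.80, 5.63 and 5.60 in nc, against 3.58, 3.74 and 2.91 in qhsc. Every nc array was above every qhsc array. The log2 change was 2.27 ± 0.21 (SE; adjusted p = 1.32e-05), a 4.81-fold rise with a 95% confidence interval of 3.44 to 6.72. S100a10 (p11), the partner of annexin A2 in a complex that binds plasminogen activators at the cell surface, measured 4.13, 4.67 and 4.57 in nc, against 3.12, 3.06 and 2.59 in qhsc. It rose by 1.54 ± 0.20 on the log2 scale (SE; adjusted p = 1.20e-04), and its other probe rose too, by 2.10 ± 0.30 (SE).

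S100a16 showed the smallest rise of the family. It measured 3.77, 3.73 and 3.73 in nc, against 3.31, 3.29 and 3.07 in qhsc, a log2 change of 0.52 ± 0.14 (SE; adjusted p = 8.51e-03) or 1.43-fold. The groups did not overlap, but the call did not hold everywhere. Its other probe gave 0.33 ± 0.18 (SE; adjusted p = 0.128), and with slide as a block the change was 0.55 with an adjusted p of 0.0535. Within the slide that held nc replicate 1 and the 3 qhsc arrays, the rises of S100a6 (5.11), S100a11 (4.04) and S100a4 (2.39) on the log2 scale were still called, while S100a10 (1.21, adjusted p = 0.0764) and S100a16 (0.55, adjusted p = 0.344) were not.

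Markers of the cell state moved with these rises. Of 13 myofibroblast markers, 12 rose and 0 fell in nc, and their summed signal, in multiples of the array's 75th percentile, was 940 to 1021 in si-cav and 863 to 906 in nc, against 19.8 to 48.8 in qhsc. The 13 measured mesothelial and portal fibroblast markers summed to 231 to 244 in si-cav and 230 to 244 in nc, against 37.5 to 62.7 in qhsc. Of the 13 of this list tested, 9 rose in nc, Fbln2 the most (log2 change 8.19), and 4 fell, Krt18 the most (log2 change -10.09, adjusted p = 1.14e-07). Gli1 of this list and Tnc of the myofibroblast list were above background on no qhsc array. A fall of these genes in nc could not have been seen. In the bulk RNA of such cultures, a change in the share of a cell type and a change in RNA per cell cannot be told apart, and the part of either in the S100 signals was not tested.

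S100a1 and S100a13 are transcribed away from each other from starts that nearly touch. S100a1, best known from heart muscle as a regulator of calcium cycling, measured 2.08, 1.53 and 2.02 in nc, against 3.42, 2.74 and 3.35 in qhsc. It fell by 1.29 ± 0.22 on the log2 scale (SE; adjusted p = 6.83e-04), 2.45-fold with a 95% confidence interval of 1.73 to 3.47, and nc replicate 2 and qhsc replicate 2 were the lowest arrays of their groups. Within the slide that held both groups the change was -1.09 (adjusted p = 0.118). S100a13, which helps to release FGF1 and interleukin-1α without a signal peptide, measured 3.63, 3.61 and 3.59 in nc, against 3.50, 3.54 and 3.74 in qhsc. These groups overlapped, and the log2 change of 0.02 had a 95% confidence interval of -0.27 to 0.31 (adjusted p = 0.91). Its sign turned under quantile normalization, to -0.10, and under 4 other settings. The 104 bases between the 2 starts are printed whole, since a fall on one side stood beside a neighbour that did not pass the test.
S100a1 and S100a13, GRCm38.p6 chr3:90514331-90514434, plus strand, from beside the S100a1 start to beside the S100a13 start: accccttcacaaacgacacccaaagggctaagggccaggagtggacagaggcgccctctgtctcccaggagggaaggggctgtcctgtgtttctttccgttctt
The S100a13 probe joins exons, with its ends at chr3:90319950-90328319 on mm9.

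S100a8 and S100a9, the subunits of calprotectin, fell the most of the 10. S100a8 measured -5.28, -5.49 and -5.20 in nc, against 1.59, 2.40 and 1.44 in qhsc. It stayed above background on all 3 nc arrays and on 2 of the 3 si-cav arrays. The log2 change was -7.13 ± 0.32 (SE; adjusted p = 1.04e-07), a 140-fold fall, or 32.3-fold and 30.6-fold with normexp background correction, which raises dim signals. S100a9 read -8.15, -8.41 and -8.46 in nc, against 3.13, 4.11 and 2.87 in qhsc, and was not above background on any nc or si-cav array, where its processed signal was 1.8 to 3.1 units. Set at the lowest signal that counted as above background on those arrays, it was at least 733-fold lower in nc (adjusted p = 9.77e-09) and at least 665-fold lower in si-cav (adjusted p = 1.06e-08). Here and at every later bound, the adjusted p is limma's for the fitted log2 change, not for the bound. Under the 2 normexp settings, whose offset of 50 lifts such signals, it was 116-fold and 111-fold lower in nc.

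The promoters of S100a8 and S100a4 are printed together because these genes, whose probes lie 158.6 and 94.7 kb from that of S100a1 on mm9, moved in opposite directions although both hold TATAAA close to the start. Capitals mark that TATA box sequence, searched on both strands and found in the same 250-base window of 12.4% of the 32851 promoters.
S100a8, GRCm38.p6 chr3:90668821-90669070, plus strand: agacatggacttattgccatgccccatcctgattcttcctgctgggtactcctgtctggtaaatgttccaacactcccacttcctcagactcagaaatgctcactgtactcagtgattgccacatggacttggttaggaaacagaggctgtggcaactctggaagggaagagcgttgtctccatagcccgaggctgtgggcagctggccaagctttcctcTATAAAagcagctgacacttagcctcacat
S100a4, GRCm38.p6 chr3:90603520-90603769, plus strand: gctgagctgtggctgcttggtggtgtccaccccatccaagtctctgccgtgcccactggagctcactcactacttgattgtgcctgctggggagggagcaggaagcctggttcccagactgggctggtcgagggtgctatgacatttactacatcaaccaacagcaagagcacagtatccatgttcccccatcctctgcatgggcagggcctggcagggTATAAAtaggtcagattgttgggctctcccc
The letters began 30 bases before the start of S100a8 and 31 before that of S100a4. They were in no other window of the 9 members with a promoter in the RefSeq table, which held none for S100a10.

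Neutrophil markers moved with S100a8 and S100a9. Of 20 neutrophil markers tested, 17 fell and 0 rose in nc, with a median log2 change of -3.20, or -2.76 with markers below background set at their bounds. Wfdc21 was at least 3251-fold lower, and Wfdc21, Ngp (neutrophilic granule protein), Ltf (lactoferrin), Retnlg and Stfa2l1 were above background on none of the 6 cultured arrays and on all 3 qhsc arrays. These genes, like S100a9, passed the filter on dim probes through qhsc alone, so a rise in nc could not have been seen. The count of 17 falls is therefore partly set by the filter. The same holds for markers of the lists below that were above background only in qhsc. Csf3r, Trem1 and Stfa2 were not called. The summed signal of the 21 markers measured, in multiples of the 75th percentile, was 49.9 to 67.2 in si-cav and 56.8 to 72.1 in nc, against 96.9 to 115 in qhsc, and most of it in si-cav and nc came from Csf3r. Without Csf3r, which was left out after its signal was seen, the sum was 3.45 to 4.53 in si-cav and 3.45 to 4.78 in nc, against 54.6 to 60.4 in qhsc. Macrophage and Kupffer cell markers fell as well, 18 of 19, with sums of 45.0 to 48.6 in si-cav and 50.7 to 58.9 in nc, against 422 to 690 in qhsc. Markers of other liver cells fell too: all 12 hepatocyte markers (median log2 change -12.90, or -12.03 at bounds), all 12 liver endothelial markers (-9.11, or -8.31 at bounds) and all 12 lymphocyte markers (-8.41, or -7.34 at bounds). The part of any of these cells in the S100a8 and S100a9 signals was not tested.

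**Figure D2:**
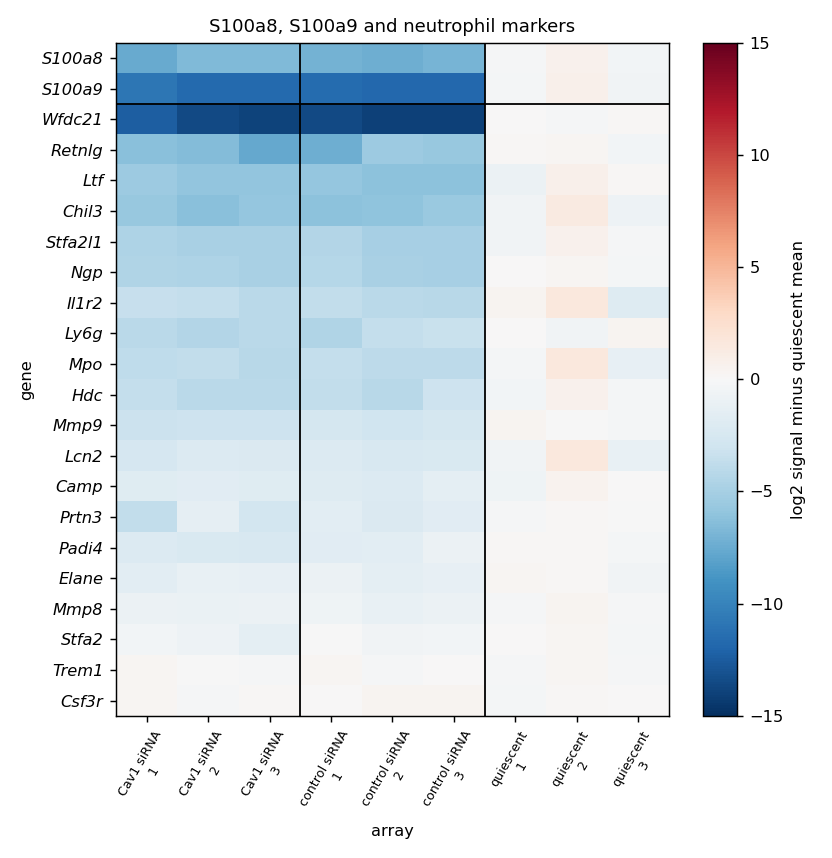
Log2 signal of S100a8, S100a9 (top 2 rows) and 20 neutrophil markers on each array minus the gene's mean over the 3 qhsc arrays, in colour, with blue for lower. S100a8, S100a9 and Wfdc21 are blue on all 6 cultured arrays, while Csf3r and Trem1 stay near white.

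S100b, a marker of glial and Schwann cells in nerve tissue, was dim in every group. It measured -3.98, -4.12 and -4.20 in nc, against -7.09, -6.36 and -7.54 in qhsc, and was above background on all nc and si-cav arrays and on no qhsc array. With each qhsc array set at its lowest signal above background, the mean was 1.82-fold higher in nc and 1.16-fold higher in si-cav. That lowest signal was -4.08 on qhsc replicate 2, above all si-cav signals and those of nc replicates 2 and 3. These bounds therefore rest on group means and set no minimum rise for single arrays. The limma adjusted p-values, 3.31e-05 in nc and 1.81e-04 in si-cav, belong to the fitted log2 changes of 2.90 and 2.24. The bounds themselves were not tested. With normexp and percentile scaling the log2 change in nc was 0.0023 (adjusted p = 0.99), so the call did not hold under that setting. With normexp and quantile scaling the change was smaller, at 0.55, and still called (adjusted p = 4.65e-04). These normexp changes in nc, 1.002-fold and 1.468-fold, were below the bound of 1.82-fold. In si-cav the log2 change turned to -0.19 with normexp and percentile scaling. Of 9 glial and Schwann cell markers tested, 3 rose and 3 fell. Ncam1, which stellate cells also make, rose by 8.07 on the log2 scale, and Sox10, which defines the glial lineage, changed by 0.43 (adjusted p = 0.0773). Erbb3 fell by 6.41, a fitted value, as it was above background on only 1 of the 3 nc arrays. The 12 glial markers measured summed to 26.8 to 28.1 in si-cav and 29.2 to 34.3 in nc, against 7.62 to 12.3 in qhsc, and their part in the S100b signal was not tested.

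Neighbours on the chromosome moved in both directions. Except for S100b, whose probe lies at chr10:75723783-75723842, all lie on chromosome 3 of mm9, where 7 stand within 181 kb of the S100a1 probe and S100a11 and S100a10 stand 3.01 and 3.05 Mb away. From S100a1 outward the log2 changes were -1.29 at S100a1, 0.02 at S100a13, 0.52 at S100a16, 2.27 at S100a4, 5.07 at S100a6, -7.13 at S100a8 and -11.71 at S100a9, the last a fitted value against a group below background. S100a4 and S100a6, whose probes are 8.3 kb apart, both rose, and S100a8, 55.6 kb beyond S100a6, fell. In all, 11 genes or transcripts with a tested probe lay in this stretch, of which 7 were called higher and 3 lower. Over all genes tested, 42.1% were called higher and 26% lower.

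**Figure D3:**
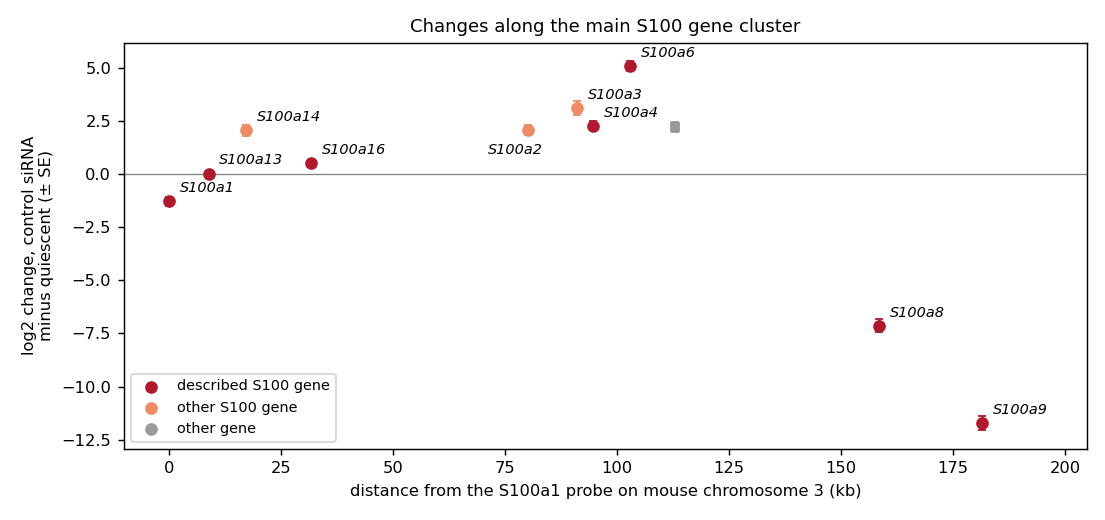
Log2 change in nc relative to qhsc (y axis, ± SE) of each gene tested between S100a1 and S100a9, against the distance of its probe from the S100a1 probe in kb (x axis), for the described S100 genes (red), other S100 genes (orange) and 1 other transcript (grey). The highest value is 5.07 at S100a6 and the lowest are -7.13 and -11.71 at S100a8 and S100a9, the last a fitted value against a group below background.

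The comparison of si-cav with nc asks what caveolin-1 knockdown changed in activated cells. No member was called, and limma called 0 of 23965 genes (0%). At an unadjusted p of 0.05, 1 member (S100a4, lower) and 1189 genes (4.96%, and 4.43% lower) passed. The groups did not overlap for 4 members, 1 higher (S100a1) and 3 lower (S100a4, S100a13 and S100b), against 22.6% of all genes, 8.61% higher and 14% lower. The median log2 change was 0.07 over the members and -0.04 over all genes.

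S100a4 measured 5.13, 5.28 and 5.13 in si-cav, against 5.80, 5.63 and 5.60 in nc. All si-cav arrays were below all nc arrays. The log2 change was -0.50 ± 0.21 (SE; unadjusted p = 0.0435, adjusted p = 0.983), with a 95% confidence interval of -0.98 to -0.02. With arrays weighted by their quality it was -0.47 with an adjusted p of 0.0347, a setting under which 95 genes were called higher and 561 lower. Within the slide that held nc replicates 2 and 3 and all si-cav arrays it was -0.44 (adjusted p = 0.2).

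S100b measured -4.26, -5.06 and -4.95 in si-cav, against -3.98, -4.12 and -4.20 in nc, a log2 change of -0.66 ± 0.31 (SE; adjusted p = 1). The groups did not overlap, and si-cav replicate 1 lay nearest to the nc arrays. S100a1 measured 2.10, 2.24 and 2.19 in si-cav, against 2.08, 1.53 and 2.02 in nc, a log2 change of 0.30 (95% confidence interval -0.20 to 0.80). For the bright S100a6, S100a10 and S100a11 the changes were 0.09, 0.07 and 0.07. Their 95% confidence intervals reached 0.62, 0.52 and 0.65 upward and -0.44, -0.39 and -0.51 downward. These intervals give the precision with 3 arrays a group and are not limits of detection. The larger log2 change of Cav1 in si-cav relative to nc, -1.76, was not called either (limma adjusted p = 0.145). S100a8 measured -5.75, -4.80 and -4.78 in si-cav, a log2 change of 0.21 with an interval of -0.51 to 0.94, and S100a9 was below background in both groups.

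**Figure D4:**
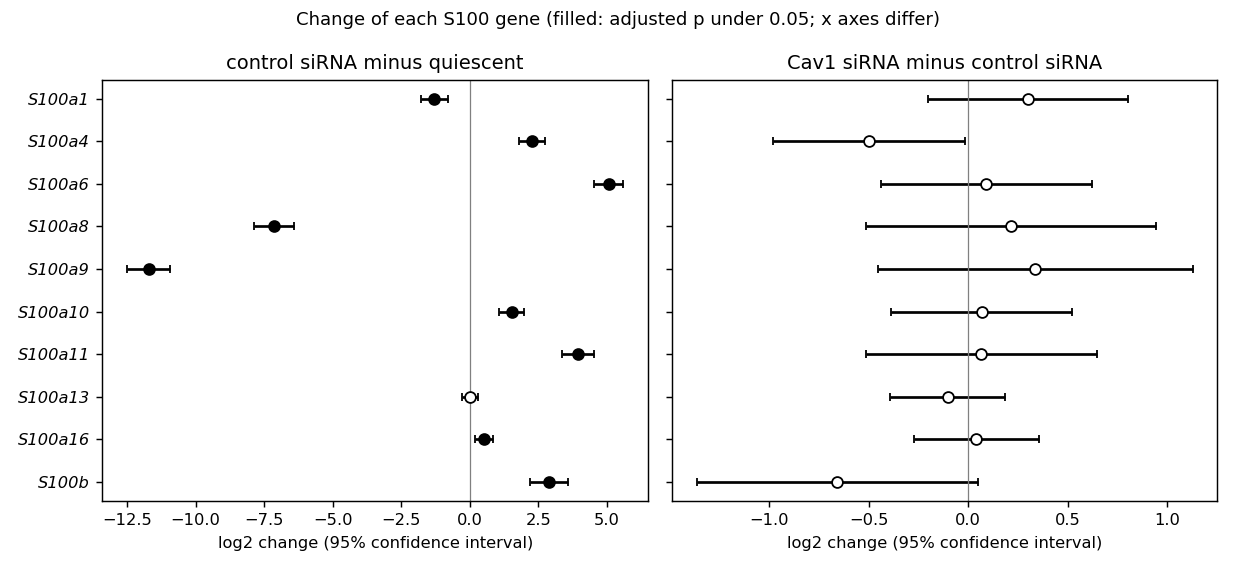
Log2 change of each S100 gene with its 95% confidence interval, in nc relative to qhsc (left) and in si-cav relative to nc (right, on a narrower x axis), with filled points where the adjusted p is under 0.05. On the left 9 points are filled and run from -11.71 for S100a9 to 5.07 for S100a6; on the right no point is filled and the values run from -0.66 for S100b to 0.30 for S100a1, leaving out S100a9, which was below background in both groups.

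The comparison of si-cav with qhsc shares its qhsc arrays with the comparison of nc, so it is no separate evidence. It called 6 members higher and 3 lower, beside 67.6% of all genes, 40.4% higher and 27.2% lower, and the groups did not overlap for 9 members, against 71.7% of all genes. Side by side, the log2 changes from qhsc in si-cav and in nc were 1.77 and 2.27 for S100a4, 5.16 and 5.07 for S100a6, 1.61 and 1.54 for S100a10, 4.01 and 3.95 for S100a11, 0.56 and 0.52 for S100a16, and -0.99 and -1.29 for S100a1. S100a13 was not called in either (-0.09 and 0.02).

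Other S100 genes were mostly too dim to follow. Of 18 further genes listed, 15 were on the array and 5 passed the filter. The list included S100pbp, which codes for a partner of an S100 protein and is not itself an S100 gene. S100a3 rose in nc by 3.08 on the log2 scale (adjusted p = 3.38e-05) and S100a2 by 2.05 (adjusted p = 7.33e-05). With qhsc set at its bound, the mean of S100a14 was 1.80-fold higher in nc (adjusted p = 7.60e-05). Its signal on nc replicate 3, -4.27, was below the lowest above-background signal of qhsc replicate 2, -4.08. S100a2 and S100a3 were each above background on 1 of the 3 qhsc arrays. S100pbp, a gene for an S100P-binding protein, fell by 0.52 at its brightest probe (adjusted p = 0.0101), but 2 of its other 3 probes read higher on every nc array than on any qhsc array. Tchh, which codes for an S100-fused hair follicle protein, gave a log2 change of -1.23 (adjusted p = 0.141). None was called in si-cav relative to nc.

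The binding partners and receptors were called in both directions. Of 42 listed, 37 were tested, and in nc 21 rose and 13 fell, with a median log2 change of 0.81 beside 0.32 over all genes. Anxa2 (annexin A2), the partner of S100A10, measured 7.47, 7.55 and 7.44 in nc, against 4.11, 4.35 and 3.67 in qhsc, and rose by 3.44 ± 0.18 on the log2 scale (SE; adjusted p = 2.68e-07). Anxa1 (annexin A1), the partner of S100A11, measured 6.77, 6.76 and 6.87 in nc, against 1.09, 1.84 and 0.88 in qhsc, and rose by 5.53 ± 0.23 (SE; adjusted p = 6.15e-08). Both annexins rose, as did these S100 partners, where 42.1% of all genes were called higher. Of the other listed annexins, Anxa5 rose by 0.96 (adjusted p = 2.69e-04). Anxa6 (0.57, adjusted p = 0.0508) and Anxa11 (0.06, adjusted p = 0.84) were not called. Plat, the tissue plasminogen activator that S100A10 binds, was at least 89.4-fold higher in nc (adjusted p = 2.62e-06) than in qhsc, where it was not above background. Among receptors of extracellular S100 proteins, Bsg (basigin) rose by 2.09 (adjusted p = 1.43e-06), Tlr4 fell by 1.48 (adjusted p = 9.90e-05), and Ager, the gene of RAGE, gave -0.30 (adjusted p = 0.268). Other listed cell-surface binders, named after their values were seen, went both ways. Mcam fell by 1.38 (adjusted p = 2.08e-04), Alcam fell by 0.81 (adjusted p = 4.17e-03) and Cd33 was at least 9.0-fold lower (adjusted p = 7.83e-06). Fgfr1 rose by 2.73 (adjusted p = 5.74e-05). Il1a, the cargo of S100A13, was at least 87.3-fold lower in nc (adjusted p = 7.35e-08). In si-cav relative to nc none of the 37 was called, 1 passing an unadjusted p of 0.05.

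Other EF-hand genes, such as the calmodulins and reticulocalbins, set the wider frame. Of 45 listed, 41 were tested, and in nc 20 rose and 13 fell, with a median log2 change of 0.44, or 0.34 with genes below background at their bounds. Ehd2, an EF-hand ATPase that sits at the neck of caveolae, rose the most, by 5.61 (adjusted p = 5.08e-08). Aif1 (IBA1), an EF-hand protein of macrophages, fell the most, by 7.10 (adjusted p = 1.21e-07). None of the 41 was called in si-cav relative to nc, 3 passing an unadjusted p of 0.05.

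**Figure D5:**
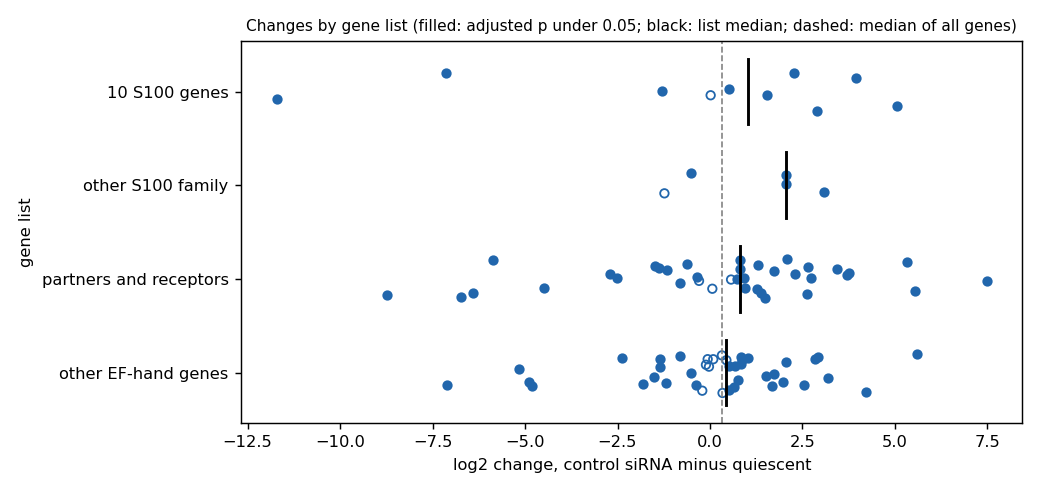
Log2 change in nc relative to qhsc (x axis) of every tested gene of 4 lists (y axis), with filled points where the adjusted p is under 0.05, a black line at each list's median and a dashed line at the median of all genes, 0.32. The 10 S100 genes span -11.71 to 5.07, and each list holds genes on both sides of 0.

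For each member above background on all 9 arrays, the genes with the nearest pattern were found by Euclidean distance over the 9 arrays after centring, among 13114 genes. S100a6 lay nearest to Olfml3 (distance 0.37) and Diaph3 (0.41), S100a4 to Fam122b (0.42) and Arhgap22 (0.43), and S100a11 to Mira (0.33). S100a10 lay nearest to Adamts10 (0.25) and Serpinb6a (0.27), and S100a1 to Slc25a5 (0.44) and Tmem69 (0.44). The flat S100a13 lay nearest to Sqstm1 (0.13) and Oip5os1 (0.15), and S100a16 to Eps15l1 (0.18) and Med12 (0.19). These distances are a description over arrays of 3 groups.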

How the data were processed

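RNA from 9 samples (3 si-cav, 3 nc, 3 qhsc; groups from the labels' titles) was labelled with Cy3 and hybridised to one-colour Agilent arrays, per the labels' protocols. The deposited intensity values are spot signals; the submitters' processing notes name Agilent Feature Extraction 10.7.1.1, and the authors' processed signals are background-subtracted, per the file headers. A deposited table of the whole series, which holds processed signals averaged over the spots of a probe, was used only as an alternative. After log2 was taken, 99.87% to 99.98% of its 56605 probe values per array lay within 0.01 of the log2 processed signal. For each array, log2 processed signals were expressed relative to their 75th percentile. Spots of a probe were averaged, and probes well above background (on at least 0.5 of their spots) on all 3 arrays of at least 1 group were kept (36885). The brightest kept probe stood for a gene, named through RefSeq accessions or symbols. All 9 arrays were fitted with limma 3.58.1 in R 4.3.3 (one mean per group, eBayes, Benjamini-Hochberg over 23965 genes, calls at 0.05), which was tested on simulated data: of 50 changed genes per size in nc against qhsc, 0% were recovered at a log2 change of 0.5, 24% at 1, 70% at 2 and 100% at 4. Only these genes were changed in the simulation, whereas 68.1% of all genes were called in the real comparison. The adjusted cutoff was therefore stricter in the simulation, and its shares do not give the recovery in the real comparison. Where a gene was below background on all arrays of a group, the fold is a bound, and the adjusted p beside it is that of the fitted change. The number of arrays limits the precision. Named genes were all members, tested S100 family genes, the largest rise and fall of each other list, Anxa1, Anxa2, Ager, Tlr4, Bsg, Cav1, defining markers and nearest patterns. Some genes that this rule names are not reported here. The members and lists were chosen with earlier results of these data known. In 24 alternatives the scaling, background, filter, probe rule, slide, replicate block, array weights, variance model and arrays were changed. Replicate numbers did not pair arrays (correlations of deviations -0.114 to 0.173). Promoters are from RefSeq, GRCm38.p6; figures used Python 3.11.15 and matplotlib 3.10.9.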

Additional observations from a re-analysis of the deposited data

How the results depend on the processing

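The count of members called in nc against qhsc stayed at 9, with 6 higher and 3 lower, in all 9 fits that left out 1 array, and at 0 in si-cav against nc. With a filter on all 9 arrays, which keeps 7 members, 1 was called lower in nc and 1 in si-cav relative to qhsc. With array weights, 1 member (S100a4) was called in si-cav against nc, and it was lower. Within 1 slide, 6 members were called in nc against qhsc, 4 higher and 2 lower; no such fit exists for si-cav against qhsc. S100a1 in si-cav against qhsc was -0.69 (adjusted p = 0.212) with slide as a block, S100a16 0.60 (0.1) there and 0.33 (0.058) with normexp and quantile, where S100a13 was called at -0.34 (0.0135). S100b in si-cav against qhsc turned to -0.19 with normexp and the percentile. All other turned signs were of changes not called. In si-cav against nc these were S100a10 at -0.10 (slide as a block, within 1 slide) and -0.024 (array weights), S100a11 at -0.084 (quantile), -0.0084 (normexp, percentile) and -0.15 (normexp, quantile), S100a13 at 0.0071 (median scaling), and S100a16 at -0.036 (normexp, percentile), -0.043 (normexp, quantile) and -0.030 (mean of probes). S100a13 turned to -0.10 (quantile), -0.14 (normexp, quantile) and -0.0044 (deposited table) in nc, and to 0.17 (median scaling) in si-cav, against qhsc. Leaving out 1 array gave -0.10 to 0.17 for S100a10 and -0.018 to 0.12 for S100a16 in si-cav against nc, and -0.029 to 0.093 for S100a13 in nc against qhsc. The cause was not tested. Median scaling moved the median of all genes in nc against qhsc to 0.47, and normexp with the percentile to -0.12, against 0.32; 46.2% of calls were then higher under that normexp setting and 47% with no filter on dim probes, against 61.8%. In si-cav against nc, normexp called 7 (percentile) and 5 (quantile) genes, the filter on all 9 arrays 6, the trend and robust model 4 and the fit of only these groups 5, all lower. Within 1 slide, 4158 genes were higher and 3457 lower in nc against qhsc, and with no filter 10879 were lower; with slide as a block 5845 were higher and 4296 lower in si-cav against qhsc, against 9687 and 6523. With the replicate block, 9818 genes were called higher and 6019 lower in nc against qhsc, against 10089 and 6239, and the members called stayed at 9 and, in si-cav against nc, at 0. Dim signals (S100a8, S100a9 and S100b) depend most on the background step.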
